A study of Mus musculus with 6 samples.

Results

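The genes described here are the Zfp genes, mouse genes named for a zinc finger protein and a number, that were expressed in cultured macrophages. They were chosen by name and selected on their read counts. A gene belonged if its symbol was Zfp followed only by digits, if it was not Zfp36 (a CCCH-type RNA-binding protein with a similar name), and if its reads summed to at least 100 over the 6 libraries. Of 370 genes with such a symbol, among 21959 genes in the deposited table, 196 belonged, on 20 chromosomes. Another 173 lay under 100 reads, and 43 of those had no read in any library. The total over all libraries chose the genes, but a gene with few reads could pass mainly through the group where it was higher. The fold changes of such genes, among them Zfp760, Zfp213 and Zfp598, are not independent of this choice. The family was also picked with earlier results of these data known, so its counts and medians are a description. The lowest members were Zfp334 with 100 reads and Zfp213 and Zfp799 with 103 each. Just outside lay Zfp61 and Zfp141 with 98 reads each and Zfp873 with 97.

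The libraries came from wild-type (WT) mouse bone marrow-derived macrophages, primary cells differentiated in culture from bone marrow. One group of 3 libraries (P1 to P3) had been kept for 24 h in medium conditioned by alveolar macrophages that carry HTR2C, the serotonin receptor 2C. The other group of 3 (N1 to N3) had been kept for 24 h in medium conditioned by alveolar macrophages without it. In both groups the conditioned medium was mixed in equal parts with fresh medium. The donors of the alveolar macrophages were mice of 8 to 12 weeks, and conditioning lasted 48 h, per the series' design text. The comparison asks how the 2 media differ in their effect on the recipient cells. Cells without conditioned medium were not analysed here, so a difference cannot be placed in one medium or the other. The labels number the samples without saying whether a number stands for a culture, an animal or a batch of medium. The p-values below therefore reflect only how far these samples vary, and that variation may be technical.

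Most proteins of this family bind DNA through tandem C2H2 zinc fingers, in which a pair of cysteines and a pair of histidines hold a zinc ion. Many also carry a KRAB box, which recruits the corepressor TRIM28 and, through it, histone H3 lysine 9 methylation and heterochromatin proteins, and these proteins are best known for silencing transposable elements. The KRAB genes have multiplied in tandem clusters of near-identical copies, while the members without KRAB include activators, chromatin-bound cofactors, RNA-binding proteins and ubiquitin ligases.

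The libraries held 15559219, 15728400 and 15545190 counts in P1 to P3 and 12843971, 13745685 and 16031723 in N1 to N3. A count of 0 would allow up to 3 reads, or 0.187 to 0.234 CPM (counts scaled to a common library total), for counting error only. The marker levels that follow are CPM scaled further with TMM (trimmed mean of M-values) factors. All 8 macrophage markers examined were present, with summed levels of 19344 to 22611 CPM in HTR2C-positive medium and 19981 to 22237 CPM in HTR2C-negative medium. Of 9 neutrophil markers 8 had reads and Ly6g had none, their sum was 1088 to 1371 CPM in HTR2C-positive medium against 895 to 1122 CPM in HTR2C-negative medium, and 3 of the 7 tested were higher at an unadjusted p under 0.05. Summed fibroblast markers were at 26.3 to 43.7 CPM in HTR2C-positive medium and 22.1 to 30.4 CPM in HTR2C-negative medium, and T cell markers at 12.7 to 19.1 and 16.3 to 19.1 CPM. Dendritic cell markers reached at most 9.75 CPM, B cell markers 1.71 CPM and erythroid markers 0.336 CPM, with Hbb-bs at 0. Any part of neutrophil-type RNA in the results below was not tested. In such bulk samples fewer cells of a type and less RNA per cell cannot be told apart. Of 8 alveolar macrophage markers 7 had reads. Their sum was 132 to 151 CPM in HTR2C-positive medium and 137 to 145 CPM in HTR2C-negative medium. The marker without a read in any library was Htr2c.

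Zfp transcripts were scarce in these macrophages. CPM here and below are scaled with TMM factors as well. The members' mean level over the 6 libraries was 1.08 to 353 CPM with a median of 4.25 CPM, against a median of 11.2 CPM over the 10177 genes tested. All 196 members passed the low-count filter and were tested. Of these, 62 averaged at least 10 CPM and 4 at least 100 CPM. Per transcript length, the member with the highest level was Zfp263, which pairs a SCAN domain with its zinc fingers, at 75.5 ± 40.5 FPKM (reads scaled by gene length and library total) in HTR2C-positive medium and 82.8 ± 20.9 FPKM in HTR2C-negative medium (SD, n = 3 each). Next came Zfp281, a GC-rich-DNA-binding factor known for its role in the exit from pluripotency, at 33.6 ± 1.46 FPKM in HTR2C-positive medium and 40.9 ± 5.69 FPKM in HTR2C-negative medium. Zfp207, whose product BuGZ binds microtubules and the mitotic checkpoint protein BUB3, had 31.9 ± 2.32 FPKM in HTR2C-positive medium and 34.7 ± 0.732 FPKM in HTR2C-negative medium. Within each medium the levels of these 2 genes overlapped at 1 SD. The next members by mean FPKM were Zfp948, Zfp800, Zfp710, Zfp706 and Zfp317, at 16.9, 16.8, 15.1, 13.6 and 12.1 FPKM over all 6 libraries.

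Summed over the 196 genes, Zfp transcripts came to 2476, 2127 and 2332 CPM in P1 to P3 and to 3062, 2785 and 2847 CPM in N1 to N3. Each library with HTR2C-positive medium lay under each with HTR2C-negative medium, and the mean of 2312 ± 175 CPM was 0.798 times the mean of 2898 ± 145 CPM. Zfp263 alone did not make this difference, since without it the sums averaged 1994 ± 60.4 CPM in HTR2C-positive and 2509 ± 170 CPM in HTR2C-negative medium, a ratio of 0.795. The separation depended on the scaling. As a share of all counts, without TMM factors, Zfp genes took 0.279, 0.205 and 0.248% in P1 to P3 and 0.270, 0.295 and 0.264% in N1 to N3, and these ranges overlap.

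**Figure D1:**
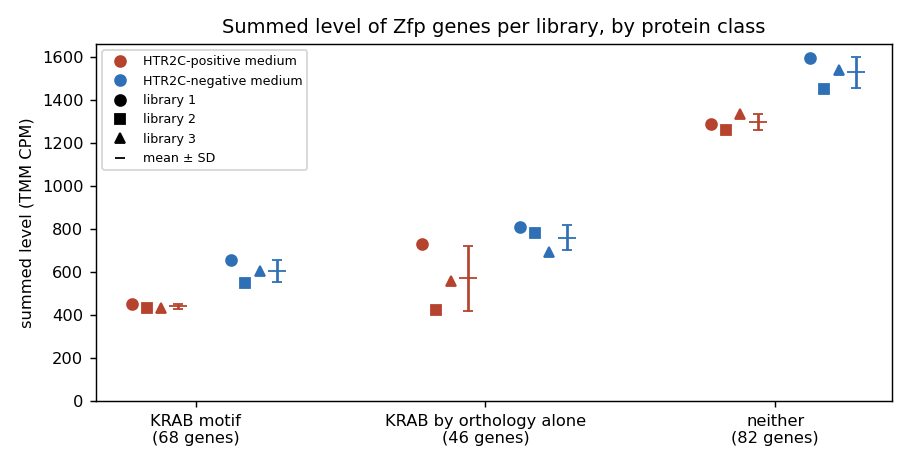
Summed level of the Zfp genes in each library in TMM-scaled CPM, by protein class, with HTR2C-positive medium in red left of HTR2C-negative medium in blue. Symbols are single libraries and bars the mean ± SD of 3; for the 68 genes with a KRAB motif the libraries with HTR2C-positive medium lay at 436 to 453 CPM, all under the 552 to 657 CPM with HTR2C-negative medium.

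Gene by gene, Zfp transcripts tended to have lower values in HTR2C-positive medium. The log2 fold change (HTR2C-positive over HTR2C-negative medium) was negative for 138 of 196 members, or 70.4%, against 47.9% of all genes tested. Its median was −0.24 over the members and 0.02 over all genes tested. At an unadjusted p under 0.05 in edgeR's quasi-likelihood test, 37 members (18.9%) were lower and 3 (1.53%) were higher, where 8.71% of all genes were lower and 7.9% higher. No member passed a Benjamini-Hochberg adjusted p of 0.05 with edgeR or with limma-voom, and neither did any other gene. At an unadjusted p under 0.05, limma-voom had 37 members lower and 3 higher, where 8.96% and 7.52% of all genes were. DESeq2 placed 11 members under an adjusted p of 0.05, all lower. Of the 6217 genes to which it gave an adjusted p, 4.34% were lower and 1.87% higher. Of the 14861 genes to which it gave a p-value, 1.82% were lower and 0.781% higher. How many members had an adjusted p from DESeq2 was not counted. The CPM of the groups did not overlap for 44 members that were lower and 9 that were higher, which is 22.4% and 4.59% of the members, against 11.5% and 10.9% of all genes. Of the members, 13 were over 2-fold lower and 3 over 2-fold higher in the fitted values. The same counts were not taken over all genes tested, so these are not read as a result about the family. With total counts alone in place of TMM factors, an unadjusted p under 0.05 in edgeR was reached by 21 members with lower and 8 with higher values, where 3.85% and 11.3% of all genes reached it, the median over all genes was 0.16, and the members' median lay 0.26 under it, as with TMM factors. The fold changes were less precise than for most genes, with a median standard error (SE) of 0.34 against 0.25 over all genes tested.

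The smallest p-value belonged to Zfp386, a gene on chromosome 12 (ENSMUSG00000042063, 116011344 to 116026980 in GRCm39) that the deposited orthology classes among KRAB zinc finger proteins. Zfp386 had 15.7, 14.7 and 14.98 CPM in P1 to P3, against 33.9, 28.9 and 28.6 CPM in N1 to N3. The 3 libraries with HTR2C-positive medium were nearly equal and far under the others. The log2 fold change was −1.01 (SE 0.17, edgeR adjusted p = 0.0616). Its promoter window is shown as an example of the GC box windows that many members have. It runs from 250 bases before to 50 bases after the RefSeq gene start (GRCm38.p6, chr12:116047474-116047773, plus strand), with the GC box letters GGGCGG in capitals, here a pair of overlapping copies.
Zfp386: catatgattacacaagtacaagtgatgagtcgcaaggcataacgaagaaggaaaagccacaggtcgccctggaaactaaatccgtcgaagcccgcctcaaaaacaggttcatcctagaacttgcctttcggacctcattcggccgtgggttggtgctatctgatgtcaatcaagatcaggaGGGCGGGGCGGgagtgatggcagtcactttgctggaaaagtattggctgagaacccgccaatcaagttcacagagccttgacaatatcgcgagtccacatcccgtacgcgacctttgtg

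Zfp760, a KRAB zinc finger gene on chromosome 17 (ENSMUSG00000067928, 21926723 to 21944617), had the lowest log2 fold change of all 10177 genes tested. It had 0.570, 0.331 and 0.121 CPM in P1 to P3, against 3.98, 2.95 and 3.22 CPM in N1 to N3. These levels rest on 10, 5 and 2 reads in HTR2C-positive medium and 45, 43 and 48 reads in HTR2C-negative medium, so the level in HTR2C-positive medium rests on few reads, and P3 was under the floor of 3. Its log2 fold change was −3.27 (SE 0.56, edgeR adjusted p = 0.0616). DESeq2 gave it no adjusted p. Because Zfp760 lies among close copies of itself, and how reads shared between copies were counted is not given in the sources used here, its count is uncertain. The promoter window of Zfp760 (GRCm38.p6, chr17:21707491-21707790, plus strand) holds 1 GC box, in capitals.
Zfp760: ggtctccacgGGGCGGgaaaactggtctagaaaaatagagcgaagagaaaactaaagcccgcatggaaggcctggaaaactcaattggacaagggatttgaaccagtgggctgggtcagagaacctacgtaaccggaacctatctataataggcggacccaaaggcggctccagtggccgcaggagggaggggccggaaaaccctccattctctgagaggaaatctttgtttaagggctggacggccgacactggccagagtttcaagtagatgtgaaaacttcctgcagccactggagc

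The other 10 members named for the smallest p among those lower split between KRAB genes and others. Zfp948, a KRAB gene by orthology, had 23.4, 25.3 and 38.5 CPM in P1 to P3 and 71.5, 49.3 and 67.0 CPM in N1 to N3. Zfp825, another KRAB gene by orthology, had 8.38, 10.98 and 10.9 CPM in P1 to P3 and 22.8, 19.2 and 19.95 CPM in N1 to N3. All libraries with HTR2C-positive medium were lower for both genes, and the log2 fold change was −1.11 (SE 0.21) for Zfp948 and −1.03 (SE 0.20) for Zfp825, with an edgeR adjusted p of 0.0805 for each. Zfp984, with a KRAB motif, had 10.1, 13.8 and 15.4 CPM in P1 to P3 and 30.5, 26.0 and 23.6 CPM in N1 to N3. Zfp677, with a KRAB motif too, had 4.73, 2.51 and 2.05 CPM in P1 to P3 and 12.7, 8.66 and 8.33 CPM in N1 to N3. These groups were also separate, and the log2 fold change was −1.03 (SE 0.21) for Zfp984 and −1.66 (SE 0.34) for Zfp677, with the same adjusted p. The promoter window of Zfp825 (GRCm38.p6, chr13:74493912-74494211, minus strand) held, besides a GC box, the ETS-type letters CCGGAAG on either strand 3 times, with overlaps, and all of these are in capitals.
Zfp825: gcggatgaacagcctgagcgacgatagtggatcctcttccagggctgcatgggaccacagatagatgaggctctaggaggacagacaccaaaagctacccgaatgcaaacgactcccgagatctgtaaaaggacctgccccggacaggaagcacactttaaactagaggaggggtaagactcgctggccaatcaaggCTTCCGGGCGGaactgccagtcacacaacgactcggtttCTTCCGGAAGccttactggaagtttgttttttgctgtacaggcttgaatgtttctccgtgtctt

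The KRAB genes Zfp558, Zfp120, Zfp991 and Zfp51 had log2 fold changes of −0.75, −0.92, −0.63 and −0.95 (edgeR adjusted p 0.113 to 0.117). Zfp558 had 33.5, 29.96 and 28.2 CPM in P1 to P3 and 62.4, 36.7 and 55.5 CPM in N1 to N3, so N2 lay closest to the libraries with HTR2C-positive medium. Zfp51 had 18.6, 10.2 and 9.97 CPM in P1 to P3 and 26.1, 19.6 and 29.3 CPM in N1 to N3. There P1 and N2 nearly met, at 18.6 and 19.6 CPM. The last 2 of the 12 carry no KRAB box. Zfp131, a BTB-domain zinc finger protein, had 41.5, 32.0 and 36.8 CPM in P1 to P3 and 60.9, 50.4 and 50.7 CPM in N1 to N3 (log2 fold change −0.55, SE 0.16). Zfp330, a nucleolar protein known as NOA36, had 34.6, 28.3 and 26.8 CPM in P1 to P3 and 48.1, 36.5 and 53.1 CPM in N1 to N3 (−0.62, SE 0.18). In both cases each library with HTR2C-positive medium was under each of the others.

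**Figure D2:**
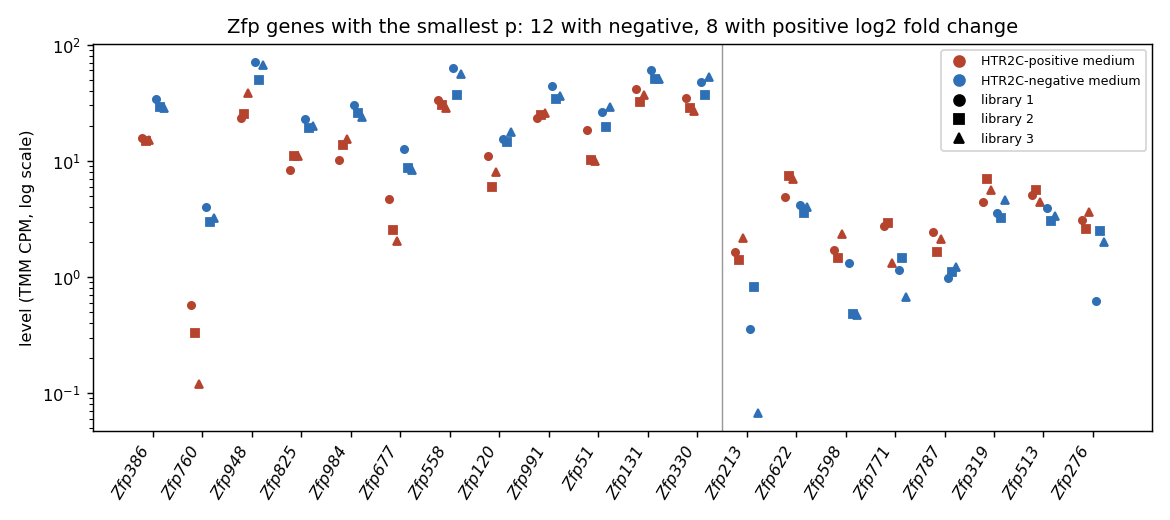
Level of the 12 Zfp genes with the smallest p among those with a negative and of the 8 among those with a positive log2 fold change, as TMM-scaled CPM on a log axis, HTR2C-positive medium in red left of HTR2C-negative medium in blue. Each symbol is 1 library; Zfp760 shows the widest gap, 0.121 to 0.570 CPM with HTR2C-positive medium against 2.95 to 3.98 CPM with HTR2C-negative medium.

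Positive log2 fold changes were found for 58 members, and those at an unadjusted p under 0.05 numbered 3. Zfp213, a KRAB gene by orthology, had 1.65, 1.39 and 2.17 CPM in P1 to P3 and 0.353, 0.824 and 0.0672 CPM in N1 to N3, from 29, 21 and 36 reads in P1 to P3 and 4, 12 and 1 in N1 to N3. Its log2 fold change was 2.04 (SE 0.72, unadjusted p = 0.0145, adjusted p = 0.192 with edgeR), the highest among the members, with the groups apart but few reads in N3. Zfp622, the relative of yeast Rei1, which acts in maturation of the large ribosomal subunit, had 4.85, 7.47 and 7.01 CPM in P1 to P3 and 4.15, 3.57 and 4.03 CPM in N1 to N3 (0.72, SE 0.29, unadjusted p = 0.0264). Zfp598, the ubiquitin ligase that marks collided ribosomes, had 1.71, 1.45 and 2.36 CPM in P1 to P3 and 1.33, 0.481 and 0.470 CPM in N1 to N3 (1.30, SE 0.59, unadjusted p = 0.0454), and 0.81 in the GC-corrected fit described below. For Zfp622 and Zfp598 too, each library with HTR2C-positive medium lay over each with HTR2C-negative medium, though P2 and N1 of Zfp598 were close. The next 5 by p were Zfp771 (log2 fold change 1.09), Zfp787 (0.92), Zfp319 (0.58), Zfp513 (0.56) and Zfp276 (0.84), with unadjusted p-values of 0.0518 to 0.096. In the GC-corrected fit these 5 had 0.37, 0.31, 0.27, 0.057 and 0.44. Of these, Zfp771 and Zfp319 overlapped between the groups. The promoter window of Zfp213 (GRCm38.p6, chr17:23564177-23564476, minus strand) held no GC box by these letters but held the NRF1-type letters GCATGCG, which overlap themselves on the other strand, in capitals.
Zfp213: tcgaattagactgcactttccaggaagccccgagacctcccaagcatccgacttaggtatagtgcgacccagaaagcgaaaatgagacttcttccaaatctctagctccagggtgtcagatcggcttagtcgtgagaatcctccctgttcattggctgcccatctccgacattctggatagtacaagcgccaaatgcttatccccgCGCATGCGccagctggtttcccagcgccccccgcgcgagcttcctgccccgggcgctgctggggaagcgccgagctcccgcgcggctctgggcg

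By protein class, lower values were found among KRAB genes and among the others. The members' proteins held a median of 10 C2H2 motifs and at most 36, and none was found in Zfp330, Zfp503, Zfp703 and Zfp839. A KRAB motif was found in 68 members, another 46 were KRAB genes only by the orthology terms of the deposited table, and 82 were neither. The median log2 fold change was −0.38 with a KRAB motif, −0.31 with KRAB by orthology alone and −0.15 with neither. Of the 68 genes with the motif, 55 had a negative log2 fold change, and at an unadjusted p under 0.05 the lower ones numbered 18 and the higher ones 0. Of the 46 by orthology alone, 8 were lower and 1 was higher, and of the 82 others 11 were lower and 2 were higher. The lower shares of the 3 classes are 26.5, 17.4 and 13.4%, against 8.71% of all genes tested. The higher shares are 0, 2.17 and 2.44%, against 7.9%. The groups were apart and lower for 23, 7 and 14 genes of the 3 classes (33.8, 15.2 and 17.1%), where 11.5% of all genes were. They were apart and higher for 1, 1 and 7 (1.47, 2.17 and 8.54%), where 10.9% of all genes were. Summed CPM showed the classes with the motif and with neither apart between the groups. Genes with the motif summed to 453, 437 and 436 CPM in P1 to P3 and 657, 552 and 608 CPM in N1 to N3. Genes with neither summed to 1293, 1265 and 1337 CPM in P1 to P3 and 1596, 1451 and 1544 CPM in N1 to N3. As a share of all counts the genes with the motif stayed apart, at 0.042 to 0.051% in HTR2C-positive medium and 0.056 to 0.058% in HTR2C-negative medium, whereas those with neither overlapped, at 0.122 to 0.146% and 0.141 to 0.154%. KRAB genes by orthology alone overlapped in CPM, at 730, 426 and 559 CPM in P1 to P3 and 809, 782 and 695 CPM in N1 to N3. The most abundant member, Zfp263, alone had 8451, 2920 and 4589 reads in P1 to P3 and 4437, 6596 and 4780 in N1 to N3. The whole class had 12806, 6445 and 9254 reads in P1 to P3 and 9162, 11379 and 10347 in N1 to N3. No class sum was taken without Zfp263, so the part of that gene in this overlap was not tested. The difference between the classes was not tested.

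The classes also differed in base composition, and the fold change followed base composition. Median transcript GC content was 40.5% with a KRAB motif, 43.5% by orthology alone and 50.4% with neither, against 49.4% over all genes tested. In a fit with the dependence on GC content and length taken out of every library (the GC-corrected fit), the median log2 fold changes of the 3 classes were −0.08, −0.17 and −0.08. The genes lower at an unadjusted p under 0.05 then numbered 9 of 68, 7 of 46 and 4 of 82, where 5.66% of all genes tested were. For the class with neither this is close to the share over all genes. The number of C2H2 motifs ran with GC content too, without a steady order of the medians. The 40 members with 15 or more motifs had a median log2 fold change of −0.29, with 16 lower at an unadjusted p under 0.05, and a median GC content of 40.3%. The 70 members with 10 to 14 motifs had a median of −0.38, with 10 lower, and the 53 with 5 to 9 motifs −0.16, with 6 lower and 1 higher. The 33 members with under 5 motifs had a median of −0.12, with 5 lower and 2 higher, and a median GC content of 50.2%. Of all genes tested, 8.71% were lower and 7.9% higher at that p as fitted. Across the members the number of motifs and the log2 fold change had a Pearson r of −0.27 and a Spearman rho of −0.28 (n = 196 genes that share the same libraries).

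**Figure D3:**
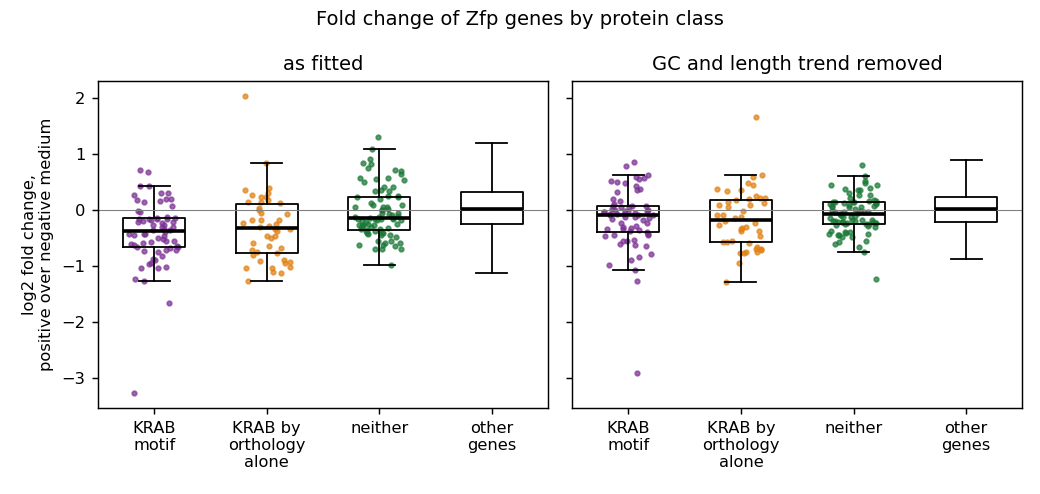
Log2 fold change (HTR2C-positive over HTR2C-negative medium) of Zfp genes by protein class and of all other genes tested, as fitted on the left and from the GC-corrected fit on the right. Points are genes, boxes the quartiles, thick lines the median and whiskers the usual extent past the box without outlying values; the medians of the 3 Zfp classes were −0.38, −0.31 and −0.15 as fitted and −0.08, −0.17 and −0.08 with the trend removed.

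Zfp genes lie in tandem clusters, and 9 clusters held at least 5 members with less than 1 Mb between neighbouring starts. The cluster with the most members, at 21229165 to 23783212 of chromosome 17 (GRCm39), had 18, of which 16 are KRAB genes. Its median log2 fold change was −0.54, 16 of the 18 were negative, and at an unadjusted p under 0.05 the lower ones numbered 8 and the higher ones 1. Of all genes tested, 47.9% were negative, and 8.71% were lower and 7.9% higher at that p. The 8 include Zfp760, Zfp948, Zfp677 and Zfp51. The other 4, named here after their values were seen, are the KRAB genes Zfp54 (log2 fold change −1.01), Zfp994 (−0.89), Zfp53 (−0.57) and Zfp160 (−0.58). Zfp54 had 5.76, 3.77 and 7.49 CPM in P1 to P3 and 16.9, 7.97 and 9.74 CPM in N1 to N3, so that N1 stood above all and P3 and N2 were close. The gene that was higher is Zfp213, at the far end of the cluster. Zfp995, the next member after Zfp760, had 2.11, 3.77 and 2.72 CPM in P1 to P3 and 2.65, 2.95 and 2.08 CPM in N1 to N3, so its groups overlapped.

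Other clusters had smaller shifts or fewer genes. On chromosome 4, 5 KRAB genes at 146533480 to 147932823, among them Zfp984 and Zfp991, had a median of −0.63 with 3 lower. On chromosome 13, 9 KRAB genes at 67461062 to 67877292 had a median of −0.36 with 3 lower. The second cluster on chromosome 17, at 32984470 to 33850753, had 9 genes, a median of −0.24 and 1 lower. The 7 genes at 126832233 to 127485168 of chromosome 7, of which 2 are KRAB genes, had a median of 0.20 with none at an unadjusted p under 0.05 in edgeR. The chromosome 4 and larger chromosome 17 clusters have the lowest median GC contents, 36.9% and 38.4%, and that chromosome 7 cluster has the highest, 53.7%. In the GC-corrected fit, the larger chromosome 17 cluster had a median of −0.19 and 4 genes lower, the chromosome 4 cluster −0.18 and 1 lower, the chromosome 13 cluster −0.054 and 1 lower, and the second chromosome 17 cluster −0.0075 and 1 lower. The chromosome 7 cluster had a median of −0.040 in that fit, so its sign turned. Of all genes tested, 5.66% were lower in that fit and 8.71% as fitted. Reads shared between tandem copies could move counts from one neighbour to another, which was not tested.

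**Figure D4:**
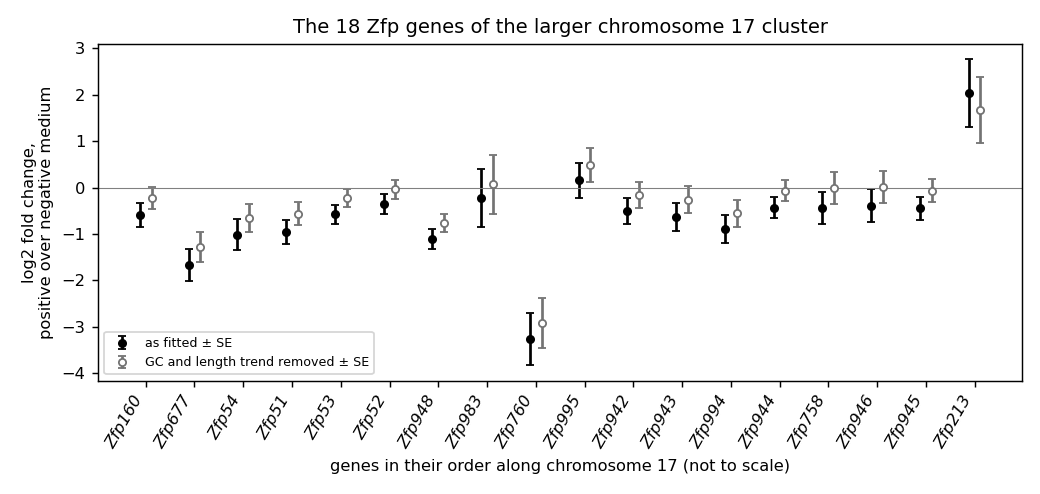
Log2 fold change (HTR2C-positive over HTR2C-negative medium) with its SE for the 18 Zfp genes of the larger cluster on chromosome 17, in gene order, as fitted (filled) and with each library's GC and length trend removed (open). Zfp760 stands lowest at −3.27 as fitted and −2.92 with the trend removed, and Zfp213 at the end of the row stands highest at 2.04 and 1.67.

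Transcript GC content ran along with the fold change over the whole table, not only in Zfp genes. Over the members the log2 fold change and GC content had a Pearson r of 0.56 and a Spearman rho of 0.52 (n = 196), and over all genes with a GC value 0.53 and 0.56 (n = 10162), as a description over genes that share 6 libraries. Under 40% GC the members' median was −0.47 (48 genes) and that of other genes −0.31 (504 genes). From 40 to 45% the medians were −0.36 (65 members) and −0.23 (2056 other genes), and from 45 to 50% they were −0.18 (31) and −0.07 (2726). From 50 to 55% they were 0.13 (29) and 0.15 (2628), and from 55% up 0.55 (23) and 0.40 (2052). In the range under 40%, 37.5% of the members and 29.4% of other genes were lower at an unadjusted p under 0.05. From 40 to 45% these shares were 24.6% and 20.3%. The members' median GC content of 43.6%, against 49.4% over all genes tested, puts most of them in the ranges where other genes had lower values too.

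For genes outside the family, each gene's log2 CPM in a library was set against its mean over the 6 libraries, and the slope of this deviation on GC content, in log2 units per 10 percentage points, was 0.25, 0.16 and 0.13 in P1 to P3 and −0.31, −0.04 and −0.19 in N1 to N3. Such centred slopes sum to 0, so both signs had to occur. All 3 libraries with HTR2C-positive medium lay over all 3 with HTR2C-negative medium, and in this design the trend and the medium cannot be told apart. In the GC-corrected fit the members' median was −0.09 and that of all genes 0.01. Then 123 members (62.8%) were negative, where 48.4% of all genes were. At an unadjusted p under 0.05 in edgeR, 20 members were lower and 4 higher, where 5.66% and 4.05% of all genes were, and 17 of the 20 were among the 37 of the uncorrected fit. Zfp386 kept a log2 fold change of −0.74, Zfp948 of −0.76, Zfp825 of −0.66, Zfp984 of −0.61 and Zfp677 of −1.27 in that fit, while Zfp991 had −0.18.

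**Figure D5:**
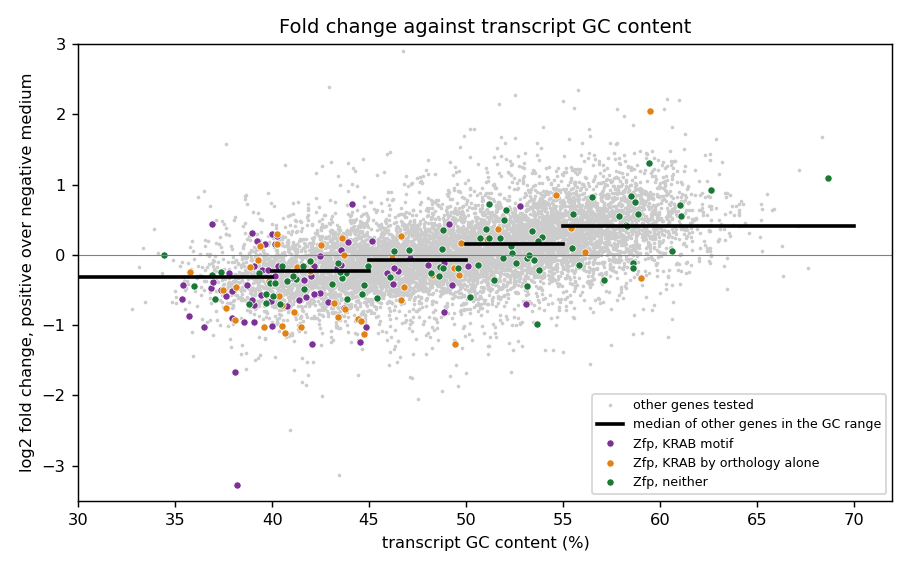
Log2 fold change (HTR2C-positive over HTR2C-negative medium) against transcript GC content in percent, with Zfp genes coloured by protein class and other genes tested in grey. Black lines are the medians of the other genes in 5 GC ranges, which run from −0.31 under 40% GC to 0.40 from 55% up, and most Zfp genes lie left of the centre.

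Among members with a described cellular role, 4 had an unadjusted p under 0.05: Zfp281 and Zfp148, which were lower, and Zfp622 and Zfp598, given above, which were higher. Of all genes tested, 8.71% were lower and 7.9% higher at that p. The 4 calls are therefore not read as a trait of these members. Zfp281 had 145, 167 and 164 CPM in P1 to P3 and 215, 221 and 195 CPM in N1 to N3, all libraries with HTR2C-positive medium under all with HTR2C-negative medium, with a log2 fold change of −0.41 (SE 0.14, edgeR unadjusted p = 0.0129, adjusted p = 0.188). Zfp148, or ZBP-89, which binds GC-rich promoters, had 18.9, 23.5 and 25.1 CPM in P1 to P3 and 33.7, 28.2 and 27.7 CPM in N1 to N3, also apart, with −0.41 (SE 0.18, unadjusted p = 0.0424). In the GC-corrected fit the log2 fold change was −0.20 for Zfp281, −0.12 for Zfp148 and −0.24 for Zfp131, none of them at an unadjusted p under 0.05. Zfp207 had 198, 203 and 206 CPM in P1 to P3 and 268, 216 and 245 CPM in N1 to N3 (−0.26, SE 0.14, unadjusted p = 0.0902). The groups of Zfp207 did not overlap, but P3 and N2 lay close together. Zfp143, an activator of small nuclear RNA and many protein-coding genes, had 16.99, 11.97 and 16.2 CPM in P1 to P3 and 21.9, 16.8 and 22.4 CPM in N1 to N3 (−0.43), with P1 above N2. Zfp638, which with the HUSH complex silences unintegrated retroviral DNA, had a log2 fold change of −0.41 with overlapping groups.

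The remaining members with a role had unadjusted p-values of 0.0989 or more. Zfp384, or NMP4, had 20.5, 18.3 and 15.8 CPM in P1 to P3 and 15.1, 15.1 and 13.0 CPM in N1 to N3 (log2 fold change 0.34). Zfp830 had 12.8, 13.8 and 12.0 CPM in P1 to P3 and 16.4, 14.6 and 16.7 CPM in N1 to N3 (−0.30). The groups were apart for both. Zfp217, an oncogene product in human cells that associates with histone demethylase complexes, had 0.25, and Zfp410, which activates the NuRD subunit gene Chd4, had −0.18. Zfp91, a ubiquitin ligase of the noncanonical NF-kappaB pathway, had −0.17. The retroviral silencer Zfp809, which recognises a proline primer binding site, had 0.20, and Zfp568, which represses a placental Igf2 transcript, had −0.04. Zfp746, the parkin substrate PARIS, had 0.04, Zfp318, which governs IgD splicing in B cells, −0.16, Zfp106, an RNA-binding protein needed by motor neurons, 0.06, and Zfp292 −0.16. All of these from Zfp217 on overlapped between the groups. Of the abundant members, Zfp263 had 482, 193 and 277 CPM in P1 to P3 and 392, 453 and 321 CPM in N1 to N3. The highest and the lowest of these 6 values were both from HTR2C-positive medium, and the log2 fold change was −0.29 (SE 0.27). Zfp317 had −0.68 (edgeR unadjusted p = 0.00815) with P3 above N2, Zfp800 −0.26, Zfp706 −0.12 and Zfp710 0.10. Of other genes of this name with known roles, the imprinting factor Zfp57 had 13 reads over all libraries, the pluripotency marker Zfp42 (Rex1) had 0, and Zfp30, Zfp692, Zfp335 and Zfp593 were also under 100.

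Libraries N2 and P1 were the closest pair across the media, with a correlation of 0.980 between their log2 CPM over all genes tested. Without N2, edgeR placed 7 members under an adjusted p of 0.05, all lower, where 1.21% of all genes were lower. Without P1 it placed 8, all lower, where 1.09% of all genes were. Zfp386, Zfp760, Zfp948, Zfp825, Zfp984 and Zfp677 were in both sets. With both libraries left out, a choice made with the data known, 27 members were lower and 1 higher, where 6.42% of all genes were lower and 4.48% higher. The higher one was Zfp213, at an adjusted p of 0.0441. The members' median log2 fold change was −0.25 without both libraries, close to −0.24 with all 6.

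A list of genes for the TRIM28 corepressor, and for heterochromatin and DNA methylation more widely, had values in both directions. Its wider part includes Ehmt2 and Suv39h1. Of its 21 genes 19 were tested, with a median log2 fold change of −0.14. At an unadjusted p under 0.05 in edgeR, the higher ones numbered 3 and the lower ones 1, where 7.9% and 8.71% of all genes tested were. None passed the adjusted threshold. Trim28 itself had 13.2, 17.3 and 18.2 CPM in P1 to P3 and 8.30, 12.8 and 10.7 CPM in N1 to N3, all libraries with HTR2C-positive medium over all with HTR2C-negative medium (0.61, SE 0.23, adjusted p = 0.212). Ehmt2, the histone H3 lysine 9 methyltransferase G9a, had 31.8, 29.4 and 28.4 CPM in P1 to P3 and 14.1, 22.9 and 17.2 CPM in N1 to N3 (0.72), with the groups apart. Suv39h1, another such enzyme, had 1.02 with overlapping groups, and Cbx3, the heterochromatin protein HP1 gamma, was the lower one (−0.55). In the GC-corrected fit Trim28 had 0.16, Ehmt2 0.20 and Cbx3 −0.30, none at an unadjusted p under 0.05. Suv39h1 (0.99) was then the higher one and the DNA methyltransferase gene Dnmt3a (−0.50, against −0.35 uncorrected) the lower one. With total counts alone the median of the list was 0.020. The 5 HUSH complex genes had a median of −0.26 and none passed an unadjusted p of 0.05, with −0.25 for Pphln1, −0.34 for Mphosph8 and −0.26 for Morc2a.

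Zinc finger genes with other names gave mixed values. Among genes named Zscan, Zkscan, Zik, Zim, Rsl1, Rslcan or Zfp with a letter suffix, 33 of 61 were tested. The name match also took in Zscan pseudogenes and Rsl1d1 (log2 fold change −0.20), which is not a zinc finger gene. The median was −0.14 and 19 were negative. At an unadjusted p under 0.05 there were 6 lower and 0 higher, where 8.71% and 7.9% of all genes tested were. The lower ones included Zfp780b (−0.65), Zfp729b (−0.94), Zfp874a (−0.66) and the SCAN gene Zscan26 (−0.57). The groups of Zfp729b, Zfp874a and Zscan26 overlapped. Of the 33 genes, 2 were apart and lower and 2 apart and higher (6.06% each), where 11.5% and 10.9% of all genes were. Of 12 tested Klf and Egr genes, which encode other zinc finger transcription factors, none was lower and 1 was higher, Egr2 (1.01), with a median of −0.17. A list of general C2H2 factors such as Ctcf and Yy1 also held Znfx1 and Zc3h12a, whose zinc fingers are of other types. Its median was 0.16 over 16 tested genes, with none lower and 2 higher, namely Znfx1 (0.36) and Zc3h12a (0.64). Both calls are thus of genes that are not C2H2 factors. The CCCH list, to which Zc3h12a also belongs, had 9 tested genes with a median of −0.13. Rc3h1, or roquin, and Zc3hav1, the antiviral protein ZAP, were lower at an unadjusted p under 0.05 with −0.45 and −0.54, and Zc3h12a, the RNase regnase-1, was higher. Most of these calls were lost in the GC-corrected fit. There Zfp780b (−0.42) was the 1 Zscan or suffixed Zfp gene at an unadjusted p under 0.05, and no CCCH gene was, with −0.20 for Rc3h1, −0.45 for Zc3hav1 and 0.30 for Zc3h12a. Znfx1 had 0.041, and of the general factors 1 was higher, Sp4 (1.03, against 0.74 uncorrected). Of the Klf and Egr genes 3 were lower and 0 higher in that fit, namely Klf16 (−0.80, against −0.32 uncorrected), Klf13 (−0.54, against −0.22) and Klf4 (−0.56, against −0.35), and Egr2 had 0.95 at an unadjusted p of 0.0524. Sp4, Klf4 and, above, Dnmt3a are named after their values were seen. In that fit the median was −0.0025 for the Zscan and suffixed Zfp genes and 0.092 for the CCCH list, and with total counts alone 0.015 for each. No gene of these lists passed the adjusted threshold in edgeR. The members and lists overlap in Zfp638, which is also in the HUSH list.

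The promoter windows described the type of promoter these genes have. RefSeq windows were found for 169 of the 196 members, and shares below are over both strands, with all 27025 genes of the RefSeq promoter table beside the members. The GC box letters GGGCGG were in 53.8% of the members and 38.2% of all genes, and the ETS-type letters CCGGAAG, which can overlap a GC box, in 24.3% and 9.93%. The NRF1-type letters GCATGCG were in 8.28% of members and 4.01% of all genes, and the YY1-type letters AAGATGG in 10.7% and 7.28%. TATAAA was in 6.51% of members and 15.7% of all genes. CACGTG was in 8.28% and 8.09%. The median ratio of observed to chance CpG was 0.680 in the members' windows and 0.384 in all windows. Members with a GC box had a median log2 fold change of −0.30 and those without it −0.22. The pair of medians was 0.038 with and −0.25 without TATAAA (11 members with it), −0.41 and −0.23 for CACGTG, and −0.29 and −0.23 for the ETS-type letters. With and without the NRF1-type or the YY1-type letters it was −0.27 and −0.24. None of these differences was tested. The members were chosen for their reads and the 27025 genes were taken whether expressed or not. The part of expression in these shares was not tested. A match is a run of letters and not a bound site.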

How the data were processed

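RNA-seq libraries of 6 macrophage samples were compared, 3 with HTR2C-positive and 3 with HTR2C-negative conditioned medium, grouped by their labels. The deposited counts hold whole numbers of reads for each gene, not normalized per the file headers, and the FPKM values the authors deposited equal count over gene length and library total (largest relative difference 3.80e-07). Tools in the submitters' processing notes are fastp, HISAT2, StringTie and edgeR, with the build GRCm39. How strand and reads with several matches were counted is not given in the sources used here, so antisense and near-identical genes are uncertain.

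Counts were fitted in R 4.3.3 with edgeR 4.0.16 (filterByExpr, TMM factors, robust quasi-likelihood F test, no covariate), with Benjamini-Hochberg adjustment over all 10177 genes. The steps were tested on simulated data. Members, lists and tests were chosen with earlier results of these data known. Named are the 12 lower and 8 higher members with the smallest p at a mean of at least 1 CPM, the 8 highest by FPKM and the 8 by CPM, members with a known role, those next to the threshold of 100 reads, and up to 4 genes per list.

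RefSeq proteins were not used here. KRAB genes were found by the motif F.DV...F..EEW in translated GENCODE M21 coding sequences (196 of 196 members) or, as a choice made after seeing the data, by the KEGG orthology terms of the deposited table. C2H2 motifs start at least 20 residues apart. That annotation is on GRCm38 and gave GC content and motifs, no coordinates. The GC and length trend of each library was fitted with loess (span 0.4) and entered as an offset. Other alternatives were RLE factors, total counts alone, no filter, 1 CPM in 3 libraries, DESeq2 1.42.0, limma 3.58.1 with voom, a replicate block, members with letters after the number, member sums of at least 20 and 500, and leaving out each library.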

Additional observations from a re-analysis of the deposited data

How the results depend on the processing

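The members' median log2 fold change (HTR2C-positive over HTR2C-negative medium) stayed negative in every alternative run and no named member at an unadjusted p under 0.05 changed sign, but counts of calls moved. DESeq2 placed 11 members (lower) and 386 genes of all under an adjusted p of 0.05, and a fit without the count filter 12 members and 422 genes, with 1.45% of all genes lower. Members of at least 500 reads had a median of −0.36, with 0 higher at an unadjusted p under 0.05.

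In the fit corrected for GC content and length the members' median was −0.090, with a KRAB motif −0.083 and without −0.0944, and 20 members were lower at an unadjusted p under 0.05, 9 with the motif and 11 without. The list medians were then −0.039 (TRIM28 corepressor), −0.075 (HUSH), −0.0025 (Zscan, Zkscan and suffixed Zfp), 0.060 (general C2H2) and 0.092 (CCCH). With total counts alone 21 members were lower and 8 higher, 9 of those lower without the motif, 25 were apart and lower and 16 apart and higher, where 6.73% and 14.6% of all genes were. Medians were −0.10 over members, −0.24 with and −0.031 without the motif, and over the lists 0.020 (TRIM28 corepressor), −0.11 (HUSH), 0.015 (Zscan, Zkscan and suffixed Zfp), −0.029 (Klf and Egr), 0.29 (general C2H2) and 0.015 (CCCH).

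Whether the replicate numbers pair the libraries is not known. Deviations from the group means of same-numbered libraries correlated at −0.15, −0.23 and 0.05, and P1 correlated best with N2. Such deviations sum to 0 within a group, so these correlations cannot settle it. The replicate block gave 34 lower members and 1 higher at an unadjusted p under 0.05, where 6.1% and 5.44% of all genes were. With the trend removed as well, the replicate block gave 18 lower, 9 with and 9 without the motif, and 1 higher, where 3.72% and 2.62% of all genes were. Medians were then −0.096 over members, −0.12 with and −0.090 without the motif, and −0.053 (TRIM28 corepressor), −0.086 (HUSH), 0.0013 (Zscan, Zkscan and suffixed Zfp), 0.055 (general C2H2) and 0.077 (CCCH) over the lists.

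Over fits that left out 1 library, or both N2 and P1, members past the adjusted threshold ranged from 0 to 27 lower and 0 to 1 higher and all genes from 0 to 1107. At an unadjusted p under 0.05, 24 to 50 members were lower, 11 to 29 of them without the motif, and 2 to 5 higher, where 4.32 to 12.7% of all genes were lower and 3.75 to 11.2% higher. Members apart and lower ranged from 51 to 74 and apart and higher from 13 to 26, where 13.8 to 26.3% of all genes were apart and lower and 13.3 to 26.3% apart and higher. Medians ranged from −0.27 to −0.19 over members and −0.22 to −0.13 without the motif. List medians ranged from −0.16 to 0.087 (TRIM28 corepressor), −0.42 to −0.18 (HUSH), −0.18 to 0.041 (Klf and Egr), 0.043 to 0.19 (general C2H2) and −0.28 to 0.051 (CCCH).

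Some members with small log2 fold changes changed sign. With the trend removed, without and with the replicate block, these were Zfp800 (0.050 and 0.048), Zfp292 (0.11 and 0.10), Zfp706 (0.089 and 0.087), Zfp710 (−0.22 and −0.23) and Zfp746 (−0.27 and −0.28), and without the block Zfp568 (0.012). With total counts alone Zfp706 was 0.021 and Zfp568 0.13. Leaving out libraries gave −0.37 to 0.052 for Zfp410, −0.12 to 0.46 for Zfp809, −0.32 to 0.055 for Zfp91, −0.0026 to 0.23 for Zfp710, −0.38 to 0.13 for Zfp318, −0.12 to 0.30 for Zfp106, −0.42 to 0.25 for Zfp568, −0.26 to 0.73 for Zfp746 and −0.46 to 0.033 for Morc2a. The cause was not tested. The members had a median of 4.25 CPM and a median SE of 0.34, against 11.2 CPM and 0.25 over all genes tested, and the part of depth in this was not tested.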
